A study of Mus musculus with 68 samples.

Results

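WT#6 and WT#8 are 2 wild-type clonal lines of mouse embryonic stem cells (ESCs) that held the fewest Zscan4 reads among the 7 wild-type clones of an August batch of RNA-seq libraries. They were selected on the summed counts of the 9 rows of the Zscan4 cluster in these same libraries. Each clone has 2 libraries, so 4 libraries stand against 10 libraries of the other 5 August clones (WT#1, WT#2, WT#3, WT#4 and WT#7), out of 68 samples in the whole series. All 7 clones are untreated male E14JU cells of a 129/Ola background, grown on gelatin in serum with LIF, and all carry a wild-type Mcm2 genotype per the labels. The series as a whole asks what happens to chromatin and to cell state when the histone-binding residues of MCM2, a subunit of the replicative helicase, are mutated (MCM2-2A), and the WT clones are its baseline. Each WT line is 1 clone, and how WT#6 and WT#8 were derived is not given in the sources used here.

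Zscan4 reads are a readout of the 2-cell-like state. A small and changing minority of ESCs in serum passes through a state in which genes of the mouse embryo at zygotic genome activation are switched on, among them the zinc finger proteins of the Zscan4 cluster, several multicopy gene families and the endogenous retrovirus MERVL, whose long terminal repeat MT2_Mm serves as promoter for many of these transcripts. The homeobox factor Dux, with its activators Dppa2 and Dppa4, turns the programme on. In bulk RNA, fewer cells in this state and less RNA per such cell cannot be told apart.

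The summed Zscan4 level was 19.6 and 13.1 counts scaled to library size (counts per 1000000, CPM) in the libraries of WT#6 and 45.1 and 38.7 CPM in those of WT#8. In the 10 libraries of the other clones the lowest value was 75.1, the median 86.6 and the highest 130.35 CPM. As clones, WT#6 stood at 16.3 CPM and WT#8, just inside the selection, at 42.2 CPM, against 82.0 CPM in WT#4, the clone just outside it. The remaining clones held 90.9 CPM (WT#1), 94.8 CPM (WT#3), 100.04 CPM (WT#7) and 109 CPM (WT#2). All 9 rows of the cluster, on chromosome 7, were lower in the pair, with log2 differences of -1.86 (Zscan4b) to -1.57 (Zscan4d). In each of the 7 clones the lower-numbered of its 2 libraries held more Zscan4, also in WT#6 and WT#8. These values chose the clones and are given without a test. The same holds for every gene of the contrast between this pair and the other clones: log2 fold changes with their standard errors (SE) come from an edgeR fit over the 7 clones, and a gene was counted as lower or higher when its log2 fold change passed 0.58 and all 4 libraries lay on one side of all 10 others.

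The libraries of WT#6 and WT#8 held 34630377 to 43884222 counts, and the other 10 held 30046007 to 51904648. The 9 ESC markers summed to 3289 to 3818 CPM in the low pair and to 2727 to 3819 CPM in the others, and none of them was at 0. The 8 fibroblast markers summed to 4.93 to 8.94 CPM in the low pair and to 7.43 to 91.1 CPM in the others, the 9 primitive endoderm markers to 232 to 249 CPM in WT#6, 120 to 122 CPM in WT#8 and 124 to 174 CPM in the others, and the 7 neural markers to 169 to 193 CPM in the low pair and 180 to 248 CPM in the others. No marker of any of these lists was at 0 in all 14 libraries. On the first principal component, which took 45.1% of the variance, WT#6 lay at 39.1 and 38.0 and WT#8 at 16.0 and 8.64, while the libraries of the other clones reached from -34.7 up to 11.9955 (WT#7 replicate 1), above WT#8 replicate 2.

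Over the 21678 genes that passed the count filter, 406 (1.87%) were counted lower in WT#6 and WT#8 and 79 (0.364%) higher. None of the 997 repeat subfamilies was counted in either direction (0%). The median log2 difference over all genes was -0.0025. The number of counted genes stands as a description, because the Zscan4 counts of the same libraries set the groups. It also depends on how many libraries must not overlap: without WT#8 replicate 1 there were 612 lower and 123 higher genes, without WT#8 replicate 2 746 lower, without clone WT#7 618 lower, and without clone WT#4 129 higher.

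The genes of the 2-cell-like state were low together with Zscan4. Of 23 genes of its multicopy families, 14 were counted lower and none higher, with a median log2 difference of -1.61, and all 23 lay below 0. Of 28 single-copy genes and small families, 8 were counted lower and none higher, with a median of -1.31. The shares over all genes were 1.87% lower and 0.364% higher. In both lists WT#6 lay further down, with medians of -2.80 and -1.73, than WT#8, with medians of -1.02 and -0.84. Many of these rows are near-identical copies among which reads can be split or shared, so the value of a single row is uncertain and rows of one family are not independent.

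Gm4340, one of a family of near-identical genes on chromosome 10 (its own row at 104194042 to 104196522, mm10), had 2.61 and 3.06 CPM in WT#6 and 10.8 and 8.24 CPM in WT#8, against a lowest value of 17.3, a median of 22.6 and a highest of 33.6 CPM in the others. The groups did not overlap, and both WT#6 libraries were below both WT#8 libraries. The log2 difference was -1.91 ± 0.43 (SE, 7 clones). Its relatives Gm20765 and Gm6763 gave -1.89 and -1.87. Gm13128, a 2-cell-like gene of chromosome 4 (144330249 to 144333465), had 0.741 and 0.425 CPM in WT#6 and 2.81 and 3.24 CPM in WT#8, against 4.18, 5.89 and 6.47 CPM (lowest, median, highest) in the others. WT#8 thus sat between WT#6 and the rest, as for Zscan4.

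Pramel7, which encodes a PRAME family protein that directs the DNA methylation cofactor UHRF1 to degradation, had 0.385 and 0.679 CPM in WT#6 and 1.53 and 1.13 CPM in WT#8, against 2.92, 3.96 and 5.06 CPM in the others, a log2 difference of -2.07 ± 0.35. Arg2, a mitochondrial arginase, had 0 and 0.226 CPM in WT#6 and 0.326 and 0.336 CPM in WT#8, against 0.574, 0.7105 and 1.34 CPM, so that its difference of -1.84 ± 0.45 rests on few reads. The deubiquitinase family members Usp17la and Usp17lc gave -1.44 and -1.65, and the POZ-domain genes Tdpoz3 and Tdpoz4, which had few reads in every library, gave -1.80 and -3.27. Zfp352, a zinc finger gene that marks the 2-cell-like state, was not counted: 0.178 and 0 CPM in WT#6 and 0.151 and 0.0611 CPM in WT#8 overlapped 0.173 to 0.448 CPM in the others.

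Genes listed as regulators of the state were mostly near the median of all genes. Of 26 regulators on the list 3 were counted lower, against 1.87% of all genes. All 3 were copies of the double homeobox gene Duxbl, and the list median was 0.09. Duxbl1 had 1.16 and 1.64 CPM in WT#6 and 1.68 and 1.56 CPM in WT#8, against 2.48, 2.78 and 3.70 CPM in the others, a log2 difference of -0.93 ± 0.18. Here WT#6 and WT#8 overlapped each other. Dppa2 and Dppa4, the DNA-binding activators of Dux, gave 0.09 ± 0.14 and 0.10 ± 0.15 and were not counted.

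MERVL-int, the internal part of the MERVL retrovirus summed over its copies, had 127 and 153 CPM in WT#6 and 299.6 and 395 CPM in WT#8, against 317, 401 and 505 CPM in the others. WT#6 was below every other library, whereas the 2 libraries of WT#8 fell on either side of the lowest other library, so MERVL-int was not counted (-0.73 ± 0.28). Its promoter repeat MT2_Mm showed the same order, with 43.4 and 48.5 CPM in WT#6, 88.1 and 110.1 CPM in WT#8, and 81.2, 113 and 142 CPM in the others.

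**Figure D1:**
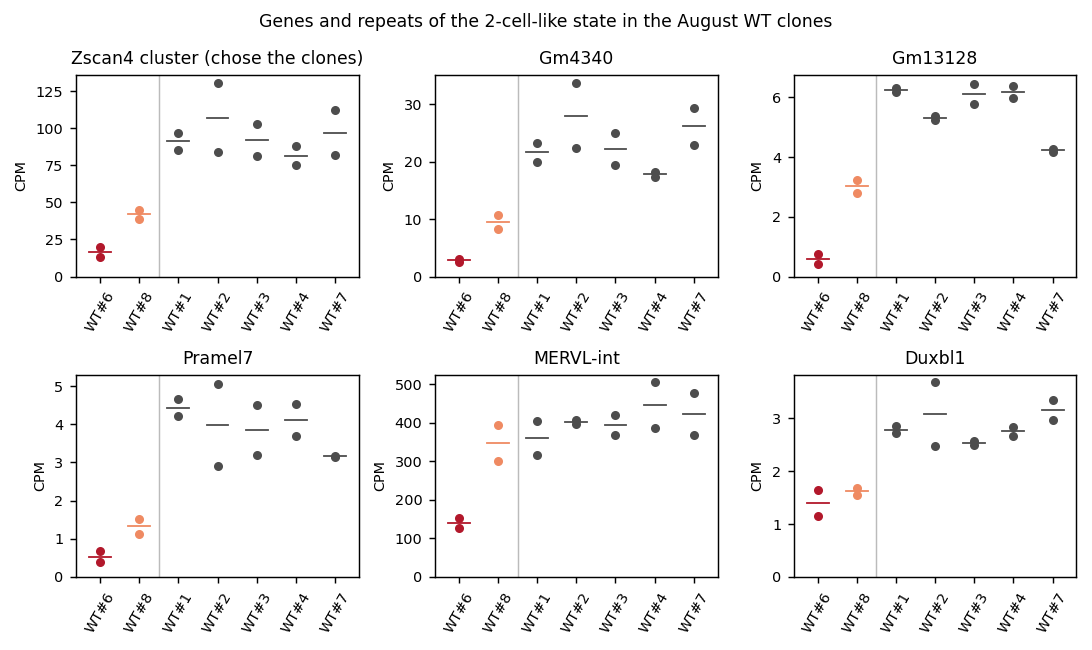
CPM per library (points) and clone mean (bars) for the Zscan4 cluster, Gm4340, Gm13128, Pramel7, MERVL-int and Duxbl1 in WT#6, WT#8 and the 5 other August WT clones. WT#6 is lowest for the first 5 features, WT#8 lies between it and the rest for the genes (45.1 and 38.7 CPM for Zscan4), and its MERVL-int libraries reach into the range of the other clones.

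Mcm2 was itself among the genes counted lower. It encodes a subunit of the hexameric MCM2-7 helicase that also binds parental histones H3-H4, and lies on chromosome 6 (88883474 to 88898780). It had 208 and 218 CPM in WT#6 and 228 and 227 CPM in WT#8, against 281, 369 and 411 CPM in the other clones. The pair was low in all 4 libraries and did not overlap the others, with a log2 difference of -0.69 ± 0.12. The difference between WT#6 and WT#8 did not pass the test (-0.09 ± 0.08, adjusted p = 0.47, edgeR quasi-likelihood test). Among the 5 other clones Mcm2 spanned 0.45 on the log2 scale (adjusted p = 0.0097), below the 0.58 limit. The 5 August MCM2-2A clones, which carry point mutations in this gene, had 187 to 262 CPM, a range that holds the levels of WT#6 and WT#8. An RNA level does not report the 2 mutated codons, so it does not check the wild-type label.

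The other helicase subunits were not counted. Mcm3, Mcm4, Mcm5 and Mcm7 gave log2 differences of 0.13 to 0.24, and Mcm6 gave 0.54, with 349 CPM in WT#6 and 499 CPM in WT#8, against 270 to 306 CPM in the other clones. Of 20 replisome and histone recycling genes 19 lay above 0, with a median of 0.14, and Mcm2 was the only one counted. Of 53 genes within 3 Mb of Mcm2, 2 were counted (Tgfa, -1.35, and Aldh1l1, -0.60, both lower), with a median of 0.07. Of all genes 1.87% were counted lower.

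Some genes of naive pluripotency were higher in the pair. Of 24 naive pluripotency genes 3 were counted higher (Esrrb, Gbx2 and Tfcp2l1), against 0.364% of all genes, and none lower. Of the 24, 21 lay above 0, against 10735 of all 21678 genes, and the list median was 0.30. Tfcp2l1, a transcription factor downstream of LIF and STAT3 (chromosome 1, 118627945 to 118685168), had 520.0 and 459 CPM in WT#6 and 502.8 and 523 CPM in WT#8, against 236, 295 and 343 CPM in the others, a log2 difference of 0.76 ± 0.08. All 4 libraries were above every other library, and the difference among the 5 other clones did not pass the test (adjusted p = 0.27, edgeR quasi-likelihood test). The homeobox gene Gbx2, another LIF-responsive factor, had 74.3 and 72.5 CPM in WT#6 and 47.6 and 38.9 CPM in WT#8, against 13.7, 21.4 and 31.7 CPM (1.37 ± 0.26). Esrrb, an orphan nuclear receptor of the naive network, had 416 and 395 CPM in WT#6 and 320 and 303 CPM in WT#8, against 175, 236 and 292 CPM (0.59 ± 0.17). Unlike Tfcp2l1, Gbx2 and Esrrb passed the test among the 5 other clones, with log2 spans of 0.86 and 0.67. In all, 11 of the 24 genes of this list passed it, against 10.4% of all genes. Pou5f1, Nanog and Sox2, the core factors shared by naive and primed cells, gave 0.14, 0.31 and 0.25 and were not counted.

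The gene furthest above the other clones, among the counted genes at 1 CPM or more, was Inhbb, which encodes the beta B subunit of activins (chromosome 1, 119415465 to 119422248). It had 78.8 and 76.2 CPM in WT#6 and 85.8 and 90.3 CPM in WT#8, against 12.03, 27.7 and 38.9 CPM in the others, a log2 difference of 1.65 ± 0.33. All 4 libraries of the pair lay above the highest other library. The 5 other clones also differed for this gene, by 1.54 on the log2 scale between the lowest and highest (adjusted p = 2.8e-06, edgeR quasi-likelihood test). The Hedgehog effector Gli2, the Frizzled receptor Fzd5 and the DNA repair subunit Xrcc5, all on chromosome 1 too, gave 0.94, 0.76 and 0.63. Inhbb, Gbx2, Tfcp2l1 and these 3 genes lie in a stretch of chromosome 1 over which the genes of WT#8 had a median of 0.56 and those of WT#6 one of 0.01. In WT#6 alone Inhbb was at 1.56, Gbx2 at 1.69 and Tfcp2l1 at 0.73 on the log2 scale. A higher level in WT#6 was required for these genes to be counted.

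Elsewhere in the genome, the genes counted higher included the cholesterol exporter Abca1 (1.12 ± 0.31), the endocytic receptor Ly75 (1.13 ± 0.26), the RAS-related GTPase Mras (0.99 ± 0.23), the POU factor Pou4f2 (1.15 ± 0.27), the corepressor Skor1 (1.32 ± 0.24), the calcium-binding Casq1 (0.97 ± 0.33), the muscle fusion peptide gene Mymx (0.99 ± 0.28), the glycosyltransferase Gcnt3 (1.08 ± 0.30) and the nucleotide sugar transporter Slc35d2 (0.99 ± 0.30). Etv4, an ETS factor of the FGF and ERK pathway, had 77.6 and 73.7 CPM in WT#6 and 70.8 and 70.3 CPM in WT#8, against 34.7, 44.7 and 49.6 CPM (0.72 ± 0.12). The 4 libraries of the pair lay close together here, and the difference between WT#6 and WT#8 did not pass the test (0.10, adjusted p = 0.39, edgeR quasi-likelihood test). The neural factor Sox1 (0.92 ± 0.25) and Piwil2, a germline PIWI protein (0.64 ± 0.14), were also counted higher. They were 1 of 40 Polycomb targets and 1 of 30 germline genes, against 0.364% of all genes. Piwil2 lies in a stretch of chromosome 14 that was higher in WT#6 (median 0.68) but not in WT#8 (-0.01), and gave 0.62 in WT#6 and 0.66 in WT#8. A higher level in both clones was required for it to be counted.

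**Figure D2:**
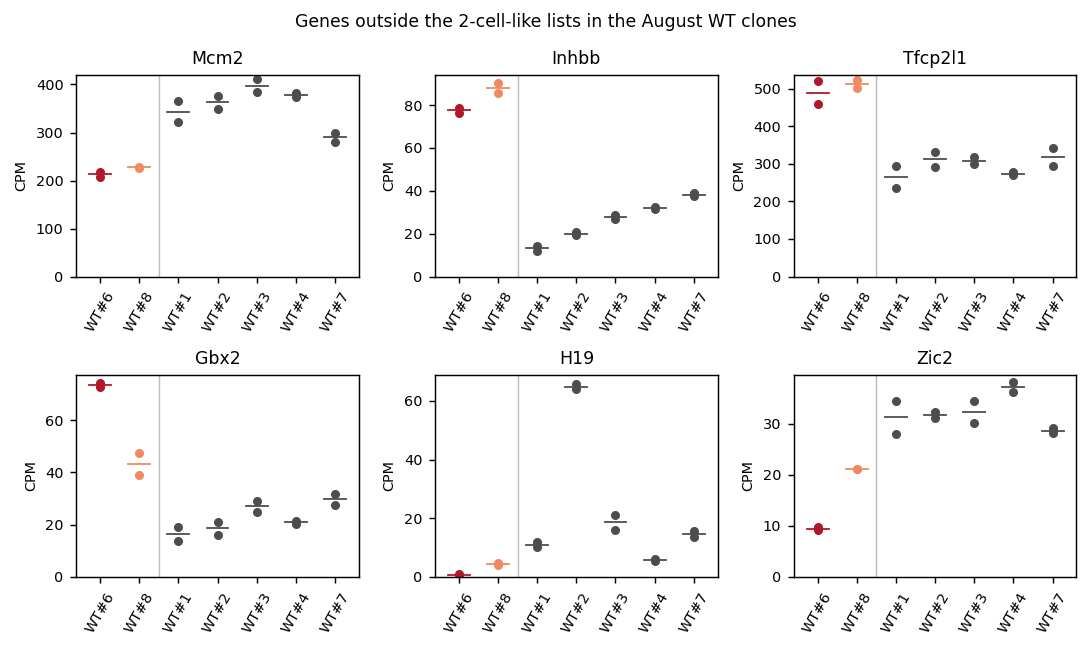
CPM per library (points) and clone mean (bars) for Mcm2, Inhbb, Tfcp2l1, Gbx2, H19 and Zic2 in the 7 August WT clones. Mcm2, H19 and Zic2 are low in WT#6 and WT#8, and Inhbb, Tfcp2l1 and Gbx2 are high, with no overlap with the 5 other clones.

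Of the genes of lineage priming, most lay below 0, but they overlapped the other clones. Of 26 lineage priming and formative epiblast genes 23 lay below 0, with a median of -1.06, but Zic2 alone was counted. Zic2, a zinc finger factor of the epiblast and neural plate, had 9.25 and 9.71 CPM in WT#6 and 21.1 and 21.1 CPM in WT#8, against 27.97, 31.8 and 38.2 CPM in the others (-1.07 ± 0.27). The other clones spread widely for this list, as 19 of its 26 genes passed the test among the 5 other clones, against 2096 of 20122 genes (10.4%) overall. Of 40 Polycomb target regulators (median -0.72), Msx2, Neurog1 and Twist1 were counted lower (-1.26, -1.60 and -0.89) and Sox1 higher (0.92). Of all 21678 genes 1.87% were counted lower and 0.364% higher, and 10943 lay below 0. Of 20 neural genes 13 lay below 0, with a median of -0.15. Nefm and Syt1, a neurofilament and a synaptic vesicle protein, were counted lower (-2.24 and -2.36), and Sox1, which is on this list too, higher.

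The gene furthest below the other clones, among the counted genes at 1 CPM or more, was imprinted. H19, a maternally expressed long noncoding RNA (chromosome 7, 142575529 to 142578143), had 0.800 and 0.595 CPM in WT#6 and 4.82 and 4.03 CPM in WT#8, against 5.39, 14.7 and 65.7 CPM in the others. The lowest other library (5.39 CPM) was thus near the highest of WT#8 (4.82 CPM), and the other clones spread from 5.75 CPM to 64.9 CPM (WT#2). The log2 difference was -3.16 ± 1.13. Peg3, a paternally expressed zinc finger gene, had 86.6 and 89.6 CPM in WT#6 and 80.7 and 92.4 CPM in WT#8, against 105, 124 and 210 CPM (-0.72 ± 0.23). Of 37 imprinted genes these 2 were counted, against 1.87% of all genes counted lower. The list median was -0.23, and Meg3 (-0.16) was not counted.

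Other genes counted lower at 1 CPM or more on average were Cysltr1, a leukotriene receptor (-2.80), the GATA cofactor Zfpm2 (-2.80), the xenobiotic oxidase Cyp1a1 (-2.47), the hyaluronan synthase Has2 (-2.40), the ciliary protein gene Efhc2 (-2.36), the alarmin Il33 (-2.28) and, with no role given here, Gm11237 (-2.31) and Gm46349 (-2.17). Of 18 genes of the actin cytoskeleton and its regulator SRF, 17 lay below 0, with a median of -1.43. Of these 18, Cnn2, Myl9 and Tpm2 were counted lower (-1.03, -1.66 and -1.02), against 1.87% of all genes. These genes too varied among the other clones, since 16 of the 18 passed that test. The fibroblast list had a median of -2.48 with 14 of 15 genes below 0 and none counted, and its marker sum was 4.93 to 8.94 CPM in the low pair and 7.43 to 91.1 CPM in the others. Its part in the lower levels of these genes was not tested.

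Among stress genes, 3 of 20 of the p53 response were counted lower, against 1.87% of all genes, with a list median of -0.34. They were the apoptosis inducer Bbc3 (-0.60), Trp53inp1 (-0.59) and Trp73 (-0.82). WT#6 gave -0.77, -0.81 and -1.11 for these 3, and WT#8 -0.44, -0.40 and -0.57. Among the 5 other clones 8 of the 20 genes passed the test, against 10.4% of all genes. Ddit4, an inhibitor of mTOR signalling, gave -0.94, the methyl-CpG-binding factor Zbtb4 -1.55 and Xist, the X-inactivation RNA, -1.18 at a level below 1 CPM. Of 22 replication-dependent histone genes none was counted (median 0.06), and of 26 Polycomb and heterochromatin enzymes none was (median 0.08). No gene was counted among 26 primitive endoderm genes (median -0.21), 21 trophectoderm genes (-0.50), 18 interferon response genes (-0.35) and 18 cholesterol synthesis genes (-0.08). On the Y chromosome Ddx3y and Uty gave 0.14 and 0.01 and were not counted.

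**Figure D3:**
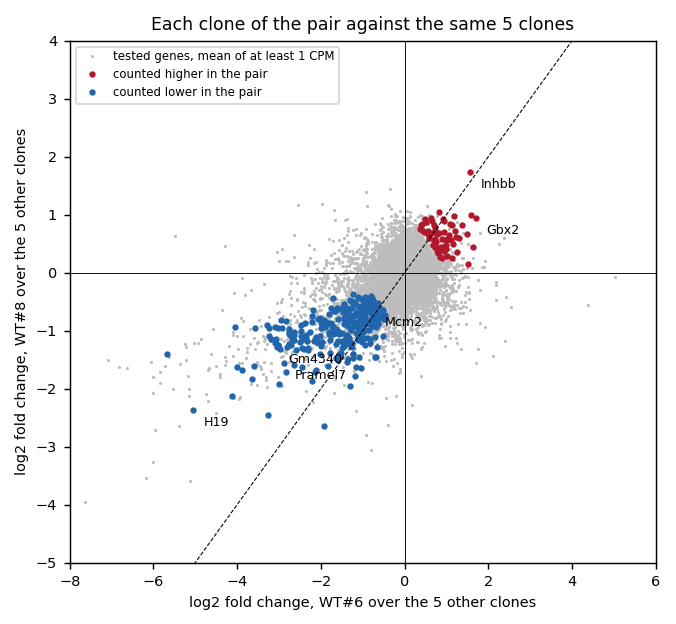
Log2 fold change over the same 5 clones for WT#6 (horizontal) and WT#8 (vertical), for genes at 1 CPM or more, with genes counted higher in red and genes counted lower in blue. Both axes are set against the same 5 clones, and most of the counted lower genes lie further from 0 in WT#6 than in WT#8.

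WT#6 and WT#8 were then compared with each other. The selection put both on the low side, but in the Zscan4 values it used WT#6 (16.3 CPM) was below WT#8 (42.2 CPM). Calls for genes and repeats that vary with Zscan4, as in the 2-cell-like state, are therefore not independent of those values. With 2 libraries per clone and the spread shared over all 7 clones, 807 of 20122 genes were called higher in WT#6 (4.01%) and 805 lower (4%) with an adjusted p under 0.01 and a log2 difference over 0.58 in either direction (edgeR quasi-likelihood test). Without WT#6 replicate 1 these counts were 517 and 433. The study calls its libraries biological replicates, but the labels do not say that the 2 of a clone came from separate cultures, so p-values here measure the spread between libraries of one clone, which may be technical. Of the 406 genes counted lower in the pair, 394 could be tested. WT#6 was the more extreme clone in 315 of them (79.9%), with medians of -1.59 in WT#6 and -1.03 in WT#8, and 59 (15.0%) were also called between the clones, all lower in WT#6. Of the 79 genes counted higher 76 could be tested, WT#6 was the more extreme in 51, and 13 were called, all higher in WT#6.

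Genes of the 2-cell-like state were among those lower in WT#6. Of the 23 multicopy genes 10 were called lower in WT#6, against 4% of all genes. Among them were Gm4340 (-1.75 ± 0.24, adjusted p = 0.00022) and Gm6763 (-1.86, adjusted p = 0.00021, edgeR quasi-likelihood test). Near-identical rows can split or share reads, so calls within one family are not separate results. Of 25 single-copy genes 5 were called lower and 1 higher, against 4% and 4.01% of all genes. Gm13128 gave -2.37 (adjusted p = 1.1e-05), whereas Pramel7 did not pass (-1.32, adjusted p = 0.025). Gm2022, Gm4027, Gm5039, Gm5662, Gm8300 and Pramef25 were called, but each lost its call when WT#6 replicate 1, WT#6 replicate 2 or WT#8 replicate 1 was left out, and 4 of them without other libraries too (Gm4027, Gm5039, Gm5662 and Gm8300), with log2 differences that then ran from -0.87 (Gm5662) to -2.87 (Pramef25).

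Genes called higher in WT#6 than in WT#8 were led by Nkx6-3, a homeobox gene of chromosome 8. It had 16.8 and 15.4 CPM in WT#6 and 0.426 and 0.519 CPM in WT#8, a log2 difference of 5.09 ± 0.22 (adjusted p = 4.7e-08, edgeR quasi-likelihood test). The other 5 clones held 0.312 to 0.703 CPM, so WT#6 stood apart from the other 6 clones. Krt17, a type I keratin of basal epithelia, had 26.4 and 25.4 CPM in WT#6 and 2.08 and 2.23 CPM in WT#8 (3.59 ± 0.20, adjusted p = 2.8e-07), against 3.10 to 6.27 CPM in the other clones. Atp8a2, a phospholipid flippase, gave 4.90 ± 0.35, Myl4, the embryonic and atrial myosin light chain, 3.55 ± 0.28, Miip 3.27 ± 0.32, Nos3, endothelial nitric oxide synthase, 3.13 ± 0.21, 2310043M15Rik 3.06 ± 0.19, and Gfra2, a GDNF family receptor, 2.86 ± 0.36. Atp8a2 and Gfra2 lie on chromosome 14 between 50 and 120 Mb, where 178 of 379 tested genes were called higher in WT#6. Atp8a2, Miip, Myl4 and Nos3 also passed the test among the 5 other clones, with log2 spans of 1.27 (Myl4) or more.

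Genes called lower in WT#6 than in WT#8 were led by Bhmt, betaine-homocysteine methyltransferase, with 0.0296 and 0.0283 CPM in WT#6 and 2.16 and 2.08 CPM in WT#8 (-6.04 ± 0.48, adjusted p = 3.2e-06, edgeR quasi-likelihood test). The other clones held 0.547 to 2.00 CPM. The fold rests on 2 reads in WT#6 against 154 in WT#8, a ratio of 73.2-fold (WT#8 over WT#6) with an exact 95% interval of 19.9 to 610.1 for counting error only. Xlr3a, one copy of an X-linked family whose rows are near-identical, had 0.0593 and 0.142 CPM in WT#6 and 2.96 and 2.59 CPM in WT#8 (-4.74 ± 0.42). T, the mesoderm factor brachyury, had 0.296 and 0.198 CPM in WT#6 and 3.36 and 5.53 CPM in WT#8, and 1.55 to 37.1 CPM in the other clones. Its call (-4.14, adjusted p = 0.0020) was lost when either WT#6 library or WT#8 replicate 2 was left out (-4.45 to -3.75), as were those of Ccn4 (-5.54 to -4.36), Csf1 (-9.40 to -3.27), Nkx1-2 (-5.04 to -3.92) and Sprr2a2 (-8.84 to -4.65, also without either WT#4 library). Gm11237 (-4.21) lost its call without WT#6 replicate 1 or either WT#8 library (-4.25 to -3.32). Of 26 lineage priming genes, 19 of which also passed the test among the 5 other clones, 11 were called lower and 2 higher in WT#6, against 4% and 4.01% of all genes. Zic2 gave -1.15 ± 0.11 (adjusted p = 1.3e-05). H19 was also lower in WT#6 than in WT#8 (-2.67 ± 0.22, adjusted p = 4.3e-06).

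Few repeats passed the test between the clones. Repeats took 3.52% and 4.00% of the counts in WT#6 and 4.13% and 5.25% in WT#8, against 3.36% to 5.30% in the other clones, and the lower-numbered library had the smaller share in each of the 7 clones. Of 965 subfamilies 9 (0.933%) were called between WT#6 and WT#8. MERVL-int was lower in WT#6 (-1.31 ± 0.18, adjusted p = 0.0010, edgeR quasi-likelihood test), as was MT2_Mm (-1.11, adjusted p = 0.0030), and both calls were lost without WT#6 replicate 1 or WT#8 replicate 2 (-1.18 and -1.10 for MERVL-int, -1.03 and -0.94 for MT2_Mm), that of MT2_Mm also without WT#6 replicate 2 (-1.19). ERVB4_2-I_MM-int (-1.73), MMETn-int (-0.83) and RLTRETN_Mm (-1.07), all sequences of endogenous retroviruses, were lower in WT#6, the last of them not called without WT#6 replicate 1 (-1.01). RLTR4_Mm (1.06), RLTR4_MM-int (1.03) and L1Md_A (0.76), a young LINE-1 subfamily, were higher in WT#6. L1Md_A lost its call without WT#6 replicate 2 or either WT#8 library (0.68 to 0.79). Among the 5 other clones 10 of 965 subfamilies were called (1.04%).

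Part of the difference between WT#6 and WT#8 lay in runs of neighbouring genes. On chromosome 1 from 50 to 150 Mb, the genes of WT#8 had a median log2 ratio of 0.56 to the other clones (1.48-fold), with 275 of 298 genes above 0, while WT#6 was at 0.01 and the 5 other clones between -0.02 and 0.02. On chromosome 14 from 70 to 120 Mb, WT#6 had a median of 0.68 (1.61-fold), with 73 of 83 genes above 0, while WT#8 was at -0.01. From 50 to 70 Mb of chromosome 14, WT#6 was at 0.66, as were WT#1 (0.61) and WT#4 (0.70), and WT#8 was at -0.33, with the rest between -0.45 and -0.41. From 0 to 10 Mb, where multicopy genes are common and 29 genes passed the limit, WT#6 was at -1.19 and WT#8 at -0.08. DNA was not measured in these data, and what underlies these shifts was not tested.

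These stretches held many of the calls between the clones. The chromosome 1 stretch held 152 genes called lower in WT#6 of 602 tested (25.2%), and chromosome 14 from 50 to 120 Mb held 178 called higher of 379 (47.0%). Outside chromosome 14 and the chromosome 1 stretch, 601 of 18774 genes were called higher (3.20%) and 619 lower (3.30%). Bora, an activator of Aurora kinase on chromosome 14, had 80.8 and 80.3 CPM in WT#6 and 31.5 and 31.1 CPM in WT#8, against 25.3, 28.7 and 30.8 CPM in the other clones. It was counted higher in the pair with WT#8 just above the highest other library.

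Of the 79 genes counted higher in the pair, 12 lay in the chromosome 1 stretch, where WT#8 as a whole was higher and 659 genes were tested. They were Nemp2, Hibch, Ino80d, Fzd5, Xrcc5, Gbx2, Tfcp2l1, Gli2, Inhbb, Slc41a1, AC124108.1 and Ddx59. WT#6, without that shift, was higher for each of these 12 too, from 0.38 (Ddx59) to 1.69 (Gbx2) on the log2 scale. Inhbb gave 1.56 in WT#6 and 1.74 in WT#8, and Tfcp2l1 0.73 and 0.79. Mcm6 also lies in this stretch. Only 1 of the 406 genes counted lower lay there, of the same 659 tested. Of the 20209 genes tested outside chromosome 14 and the chromosome 1 stretch, 397 were counted lower and 61 higher. The shares over all genes were 1.87% lower and 0.364% higher.

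**Figure D4:**
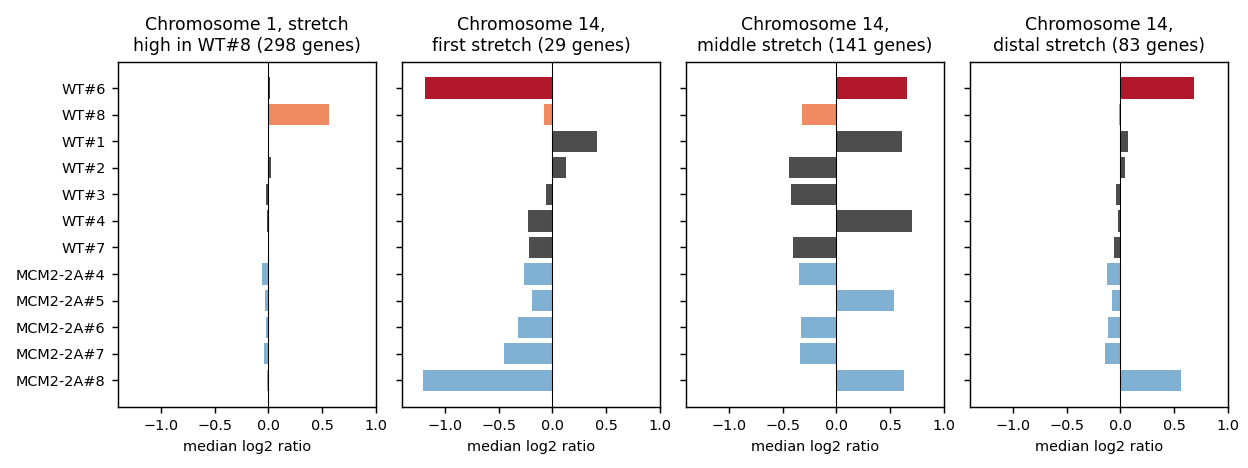
Median log2 ratio to the other WT clones over genes of 4 chromosome stretches in 12 August clones (red WT#6, orange WT#8, grey the 5 other WT clones, blue the 5 MCM2-2A clones). WT#8 stands alone on chromosome 1 (0.56), and WT#6 and MCM2-2A#8 stand together on chromosome 14 from 70 to 120 Mb (0.68 and 0.56).

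The 5 clones left out of the pair were not uniform either. Of the 394 tested genes counted lower in the pair, 121 (30.7%) passed the test among the 5 other clones, and of the 76 counted higher 16 (21.1%) did, against 10.4% of all genes. Among these 5, Gm4340 spanned 0.65 (adjusted p = 0.13) and Duxbl1 0.32 (adjusted p = 0.75, edgeR quasi-likelihood test). Has2 and Il33 spanned 2.27 and 2.11.

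Libraries outside the selection give a wider range for these genes. The 3 March libraries of WT#1 held 110.4, 149 and 118 CPM of Zscan4 in the same table, and their Mcm2 levels were 340.1 to 372 CPM. The August MCM2-2A clones held 158 CPM (MCM2-2A#4), 173 CPM (MCM2-2A#5), 161 CPM (MCM2-2A#6), 190.0 CPM (MCM2-2A#7) and 84.1 CPM (MCM2-2A#8). The lowest of these was thus close to WT#4 and above WT#8. In the 2 other experiments WT#1 had 45.0 to 69.2 CPM and 13.4 to 18.4 CPM, but those tables were processed separately and list Gm20765 at 0 in all but 1 library (0.102 CPM), against 23.7 to 36.1 CPM in the March libraries, so that levels of multicopy rows cannot be set against the clone table.

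The selection did not use the MCM2-2A clones, and one of them, MCM2-2A#8, had the most extreme value for most of these genes. Among the 5 MCM2-2A clones it was the lowest for 335 of the 406 genes counted lower in WT#6 and WT#8 (82.5%), against 30.2% of all tested genes, and the highest for 63 of the 79 counted higher (79.7%), against 27.9%. It also shared the WT#6 values on chromosome 14, with -1.20 from 0 to 10 Mb, 0.63 from 50 to 70 Mb and 0.56 from 70 to 120 Mb. Log2 ratios of WT#6 and WT#8 to the 5 other WT clones were compared across 12883 genes with those of the MCM2-2A clones. Each MCM2-2A clone was set against the other 4. WT#6 and MCM2-2A#8 had a Pearson r of 0.77 and a Spearman rho of 0.62, and r was 0.75 without chromosome 14 and the chromosome 1 stretch. With the other 4 MCM2-2A clones WT#6 gave r from -0.52 (MCM2-2A#5) to -0.0053 (MCM2-2A#4). For WT#8 r was 0.18 with MCM2-2A#8, and ran from -0.59 (MCM2-2A#5) to 0.35 (MCM2-2A#4). As each MCM2-2A clone was set against the other 4, the 5 ratios of a gene sum to 0. A high r with 1 MCM2-2A clone thus lowers r with the others, and those lower r are not a separate result. These correlations are across genes, which are not independent replicates, and the clones share their batch and scaling.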

How the data were processed

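The libraries were strand-specific and depleted of rRNA. The submitters' processing notes name Trimmomatic 0.39, STAR 2.7.1a, featureCounts and the mm10 build, and the authors deposited unnormalized whole-number counts for 55335 genes and 1146 repeat subfamilies. The clone experiment has 42 columns, of which 27 were used, and 3 that match no sample were left out. Clone names and the August batch come from the study's sample list. Symbols and positions are from GENCODE vM21 (mm10), which holds 55154 of the gene rows.

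Counts were scaled by TMM on genes alone (edgeR 4.0.16, R 4.3.3) and filtered with filterByExpr (min.count 10, min.total.count 15). All CPM use these scaled library sizes. Library totals are 30046007 to 51904648, and CPM of low genes rest on few reads. The low pair was set against the other clones on sums per clone, with no test. WT#6 over WT#8 and the differences among the 5 other clones were tested on libraries with edgeR quasi-likelihood F tests, with a group per clone, and Benjamini-Hochberg adjustment for genes and repeats separately. SE is the log2 fold change over the square root of F. The 5 other clones were called at the same adjusted p and a largest difference above 0.58. Stretch medians use genes at 2 CPM or more and a pseudocount of 0.5 CPM. The clones, gene lists and tests were chosen with earlier results of these data known.

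Genes named are counted list members, the 12 counted at 1 CPM or more that differ most in each direction, the 8 called each way between WT#6 and WT#8, the repeats that differ most and a set of fixed names. The Mcm2 neighbours, the other helicase subunits and the chromosome 1 genes were added after their values were seen. The fits were tested on simulated data. Alternatives were other scaling factors, filters and limits, DESeq2 1.42.0, glmTreat, a replicate block, single libraries as units, single clones, and leaving out each library or clone. Leaving out chromosome 14 and the chromosome 1 stretch was added after seeing the data.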

Additional observations from a re-analysis of the deposited data

Results flagged for a closer look

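Clone values of 20 named features and of the Zscan4 sum were searched for a clone far from the rest. This was done in the 5 other August WT clones and in the 5 August MCM2-2A clones, and 5 of the 42 sets held one. The cutoff stands for a chance rate of about 1 in 20 per set. That rate does not apply here, as many features were picked for their values and sets of the same clones are not independent. H19 stood at 64.9 CPM in WT#2, with the other 4 clones at 5.75 to 19.3 CPM. The remaining 4 were all MCM2-2A#8 among the MCM2-2A clones. Gbx2 was at 70.9 CPM there and at 19.7 to 28.1 CPM in the other 4, Krt17 at 20.2 CPM and 4.06 to 5.51 CPM, Nkx6-3 at 10.3 CPM and 0.242 to 1.26 CPM, and Etv4 at 96.8 CPM and 48.2 to 59.9 CPM.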

How the results depend on the processing

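No counted or called log2 difference of a named feature changed sign under any alternative. For the low pair, 3133 of 3322 values moved by less than 1 SD between clones and 189 by more. Most of the larger moves came from using a single clone: 77 of 120 values with WT#6 alone and 64 of 120 with WT#8 alone. The total also holds the log2 limit of 1, which changes only the cutoff and cannot move a value. For WT#6 over WT#8, 2287 of 2424 kept their side of the threshold, 104 lost it and 33 gained it. Without scaling, 46 genes were counted higher in the pair and 1 repeat, and at a log2 limit of 1 there were 15 higher genes. WT#6 alone gave 2225 lower and 800 higher genes and 42 repeats, and WT#8 alone 848, 455 and 1. Without a filter, 1249 genes were called lower in WT#6 than in WT#8 with 37 repeats, and 3436 genes and 36 repeats among the 5 other clones. DESeq2 called 17 repeats between WT#6 and WT#8 and 18 among the 5. Using the 4 libraries of WT#6 and WT#8 alone, 360 genes were called lower. glmTreat gave 272 higher and 246 lower genes and 1 repeat. The labels do not say that a replicate number marks a shared culture or day, and 12 of 15 clone pairs, not all, had a correlation over 0.1 (range -0.08 to 0.57), so the numbers were not taken as pairs. The libraries with the same number nevertheless shared deviations, as with the lower Zscan4 level and higher repeat share of the higher-numbered library in all 7 clones, and with a replicate block 915 genes were called higher and 1021 lower with 25 repeats, and 2643 genes and 39 repeats among the 5. Leaving out a library or clone in turn gave 414 to 746 lower and 69 to 129 higher genes and 0 to 8 repeats for the pair, 517 to 829 higher and 433 to 849 lower genes and 6 to 12 repeats for WT#6 over WT#8, and 1385 (without WT#4 replicate 2) to 2217 genes and 7 to 12 repeats among the 5. For the pair a count grows by construction when fewer libraries must not overlap, and otherwise the cause was not tested. Without chromosome 14 and the chromosome 1 stretch, an alternative chosen after seeing the data, 397 genes were lower and 61 higher in the pair, and 588 higher and 580 lower in WT#6 over WT#8. With 2 libraries a clone and 1 clone per line, depth limits the genes under 1 CPM most.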
